A study of Mus musculus with 77 samples.

Results

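The polysome-associated RNA of germ cells was compared with that of Sertoli cells in the neonatal mouse testis, from time 0 to 48h after retinoic acid (RA). The comparison rests on 16 of the 77 arrays of the series, chosen by their labels alone: 8 arrays of immunoprecipitated (IP) RNA from the Stra8-cre:RiboTag line and 8 from the Amh-cre:RiboTag line, 2 at each of time 0, 12h, 24h and 48h. RiboTag is an allele of the ribosomal protein gene Rpl22 whose product gains an epitope tag in cells where Cre has acted, so that an antibody to the tag recovers the ribosomes of those cells with their RNA. Stra8-cre acts in germ cells and Amh-cre in Sertoli cells. All animals of both lines were FVB/N and had received BDAD, an inhibitor of RA synthesis, for 9 consecutive days. Those of time 0 had BDAD only, and the others were then injected with RA and examined 12h, 24h or 48h later. No group given a vehicle in place of RA was used here, so RA, the injection, age and the end of BDAD cannot be told apart over time. The total RNA of whole testes from the same lines and times (14 Stra8-cre and 8 Amh-cre arrays) served as background, and 8 IP arrays at 6d and 8d were used for 1 later comparison. The ages of the animals and whether replicate arrays came from separate animals are not stated in the labels, so a p-value here reflects the variation among these arrays, which may be technical.

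In the seminiferous cords of the neonatal testis, germ cells are spermatogonia, which either keep the stem cell pool or, under RA, begin to differentiate towards meiosis. Sertoli cells are the somatic cells that enclose them: they supply growth factors and lactate, carry the receptors for follicle stimulating hormone, and later build the tight junctions of the blood-testis barrier. BDAD holds spermatogonia before the RA-dependent step, and the injection of RA then starts them in synchrony. A ribosome tag in each cell type therefore gives the 2 partners of this niche side by side.

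Levels are given as log2 intensity, and differences as Stra8-cre IP minus Amh-cre IP on the log2 scale with the standard error (SE) of the fit. Calling a gene required a difference of at least 2-fold with an adjusted p under 0.05 (limma, Benjamini-Hochberg over all 19938 genes tested). The median intensity of an array ranged from 252.6 to 268.3 units in Amh-cre IP and from 281.7 to 291.5 in Stra8-cre IP. These ranges do not overlap, so the scale of the arrays differed with the line. Replicate arrays had correlations across genes from 0.9943 to 0.9983. Fewer cells of a type and less RNA per cell cannot be told apart in these samples.

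The marker genes followed the labels in every array. Ddx4, the germ cell RNA helicase also known as Vasa, had a lowest, median and highest level of 12.29, 12.42 and 12.52 over the 8 Stra8-cre IP arrays, and of 8.11, 8.79 and 9.33 over the 8 Amh-cre IP arrays. Sall4, a zinc finger factor of spermatogonia, lay at 12.27, 12.57 and 12.85 in Stra8-cre IP and at 8.44, 9.35 and 9.86 in Amh-cre IP. For these germ cell genes the groups were separated by more than 2 log2 units, with differences of 3.64 ± 0.128 (12.5-fold, adjusted p = 1.22e-13) for Ddx4 and 3.31 ± 0.093 (9.9-fold, adjusted p = 1.16e-14) for Sall4. Sox9, the transcription factor that sets Sertoli cell fate, lay at 10.03, 10.62 and 11.57 in Stra8-cre IP and at 12.97, 13.05 and 13.32 in Amh-cre IP (-2.33 ± 0.15, adjusted p = 2.17e-10). Amh, the hormone that makes the Müllerian ducts regress, lay at 8.4, 8.82 and 10.57 in Stra8-cre IP and at 12.48, 12.51 and 12.89 in Amh-cre IP (-3.49 ± 0.197, 11.2-fold, adjusted p = 3.75e-11). Neither Sertoli cell gene overlapped between the groups. Rpl22, whose allele carries the tag, differed by -0.12 ± 0.069 between the IP groups (95% interval -0.26 to 0.03) and by 0.01 in total RNA.

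**Figure D1:**
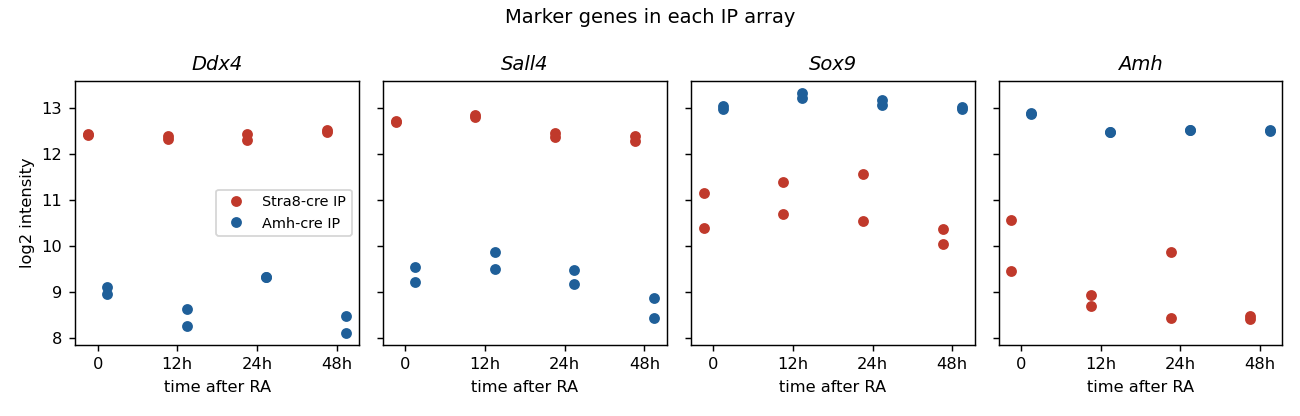
Log2 intensity of 4 marker genes in each of the 16 IP arrays (y axis) by time after RA (x axis), with 1 point per array. Ddx4 and Sall4 are above 12.2 in every Stra8-cre IP array and below 9.9 in every Amh-cre IP array, while Sox9 and Amh are higher in every Amh-cre IP array.

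Genes of the other cell type gave signal in each IP, and its level varied between arrays. Carried-over RNA, array background and the cells' own expression cannot be told apart in it. The mean log2 level of 35 Sertoli secreted and marker genes was between 11.49 and 11.75 in the Amh-cre IP arrays. In Stra8-cre IP it was 10.36 in the second array of time 0 and 10.14 in the second array of 24h, and between 9.51 and 9.84 in the other 6. Amh itself was at 10.57 and 9.86 in those 2 arrays. In the other direction, 20 pan-germ cell genes averaged between 10.83 and 11.02 in Stra8-cre IP and between 7.99 and 8.43 in Amh-cre IP. Without the 2 Stra8-cre arrays with the highest Sertoli cell gene signal, the counts of called genes given next became 1678 and 2115, and each gene list described below kept its count to within 1 gene in each direction.

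Germ cell and Sertoli cell IP RNA differed by at least 2-fold for 3654 genes, 18.3% of those tested. Of these, 1607 (8.06%) were higher in Stra8-cre IP and 2047 (10.3%) in Amh-cre IP. The 16 arrays fell into groups without overlap for 7911 genes (39.7%; 19.8% in each direction), including 3559 of those called. Differences of at least 8-fold numbered 94 towards germ cells and 33 towards Sertoli cells, with maxima of 18.2-fold and 15.3-fold. In contrast, 15378 genes (77.1%) had a 95% interval that lay wholly within 2-fold. The median over all genes was 0.04. The balance of the 2 directions depended on scaling: 44% of calls were towards Stra8-cre IP as deposited, 37.4% after median centring of each array and 47.9% after quantile normalization.

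**Figure D2:**
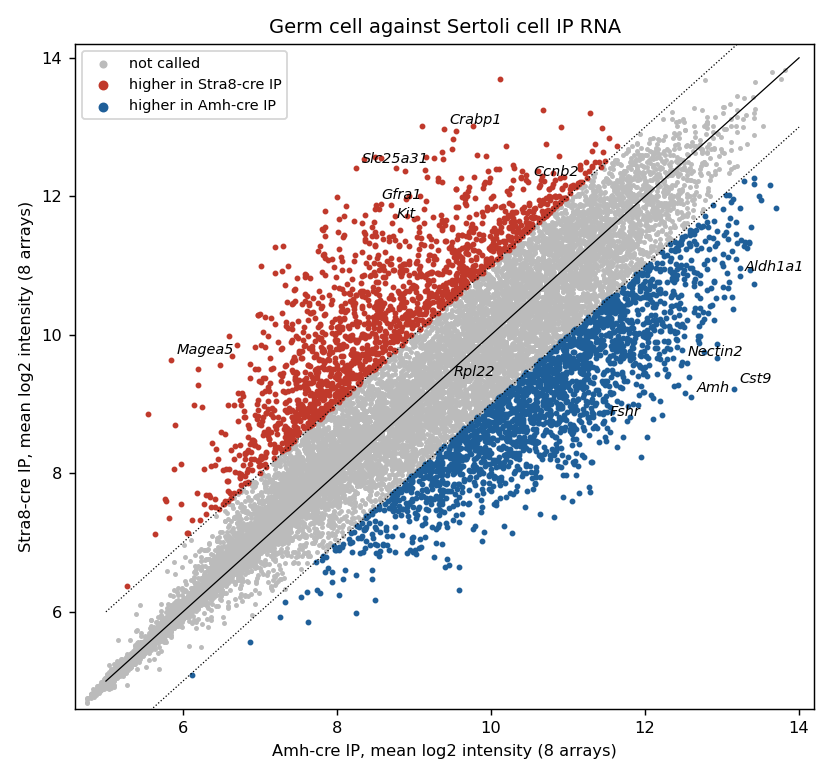
Mean log2 intensity of each of 19938 genes over 8 Amh-cre IP arrays (x axis) and 8 Stra8-cre IP arrays (y axis), with the line of equality solid and 2-fold differences dotted. Called genes are coloured, 1607 in red for Stra8-cre IP and 2047 in blue for Amh-cre IP, and the widest departures, such as Slc25a31 and Cst9, lie more than 3.9 log2 units from equality.

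Promoters of genes that marked each side are shown, as the 250 bases before the RefSeq start site, because short motifs recurred in some of the gene lists. Of the 19938 genes, 15614 had an entry in the RefSeq promoter table (GRCm38.p6). The motifs searched, on both strands, were the E-box CACGTG, the E2F motif GCGGGAA, the NF-Y motif CCAAT, the CHR motif TTTGAA of cell cycle genes, the CRE TGACGTCA, the GATA motif AGATAA, the SF1 motif CAAGGTCA and the SOX motif AACAAT, which may overlap one another. In the sequences, written 5′ to 3′ on the strand of the gene and ending at the base before the start site, capitals mark any of these motifs. Slc25a31, Sycp3, Ddx4 and Mael are germ cell genes, Ccnb2 is the gene whose line difference changed most over time, and Fshr is a Sertoli cell gene. The printed germ cell genes and Fshr all hold an E-box, so they do not represent their side. Other promoters looked up held no E-box: Asz1, M1ap, Tktl1, Tex101 and Stra8 of germ cells, and Cst9, Cst12, Inha and Gata1 of Sertoli cells. Of these, M1ap, Cst9, Cst12 and Gata1 held none of the motifs searched.
Slc25a31, chr3:40708621-40708870, + strand: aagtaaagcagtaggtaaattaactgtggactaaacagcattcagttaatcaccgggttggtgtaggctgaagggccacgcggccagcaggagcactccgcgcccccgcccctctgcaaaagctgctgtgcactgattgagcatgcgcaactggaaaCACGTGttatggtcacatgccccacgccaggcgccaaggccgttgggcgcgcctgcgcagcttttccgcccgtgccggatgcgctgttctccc
Sycp3, chr10:88459337-88459586, + strand: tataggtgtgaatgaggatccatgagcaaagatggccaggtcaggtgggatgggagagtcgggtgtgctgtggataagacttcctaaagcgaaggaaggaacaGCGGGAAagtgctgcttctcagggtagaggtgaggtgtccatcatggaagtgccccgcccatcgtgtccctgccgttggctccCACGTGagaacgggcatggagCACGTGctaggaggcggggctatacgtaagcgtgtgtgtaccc
Ddx4, chr13:112652311-112652560, - strand: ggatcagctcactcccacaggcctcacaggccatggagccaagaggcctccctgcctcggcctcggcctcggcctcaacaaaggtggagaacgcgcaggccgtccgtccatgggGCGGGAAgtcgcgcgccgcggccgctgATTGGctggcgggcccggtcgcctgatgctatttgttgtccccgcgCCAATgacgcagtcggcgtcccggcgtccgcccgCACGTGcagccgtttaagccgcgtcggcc
Mael, chr1:166238745-166238994, - strand: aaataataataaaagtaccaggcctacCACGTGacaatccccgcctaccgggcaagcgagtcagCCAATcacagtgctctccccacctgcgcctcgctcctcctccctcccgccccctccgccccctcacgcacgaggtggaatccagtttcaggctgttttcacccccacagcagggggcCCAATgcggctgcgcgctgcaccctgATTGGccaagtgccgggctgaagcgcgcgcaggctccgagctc
Ccnb2, chr9:70421555-70421804, - strand: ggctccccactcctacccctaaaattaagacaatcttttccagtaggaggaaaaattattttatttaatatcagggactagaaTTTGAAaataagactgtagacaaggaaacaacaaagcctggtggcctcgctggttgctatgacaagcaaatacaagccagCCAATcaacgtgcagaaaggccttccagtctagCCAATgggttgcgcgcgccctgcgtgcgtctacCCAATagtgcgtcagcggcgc
Fshr, chr17:89200676-89200925, - strand: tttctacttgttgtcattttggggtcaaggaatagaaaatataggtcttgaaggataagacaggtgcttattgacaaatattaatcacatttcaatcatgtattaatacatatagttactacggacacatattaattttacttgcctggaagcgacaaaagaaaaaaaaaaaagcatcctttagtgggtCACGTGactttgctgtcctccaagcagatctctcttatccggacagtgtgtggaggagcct

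Slc25a31 has its E-box 93 bases before the start site, Ddx4 has one at 29 bases, and Sycp3 has 2, at 43 and 64 bases, with an E2F motif at 147 bases. The E-box was found for 8 of 17 genes of the piRNA and germ granule list with an entry (47.1%), for 7 of 26 meiotic genes (26.9%) and for 4 of 15 pan-germ cell genes (26.7%). Among Sertoli cell lists it was found for 3 of 11 transcription factors (27.3%), a share like those of the last 2 lists, and for 2 of 27 secreted and marker genes (7.41%). Its share was 8.11% over all 15614 genes, 12.1% over the 1307 genes called towards Stra8-cre IP, and 8.81% over the 1611 called towards Amh-cre IP. The E2F motif was found for 30.8% of the meiotic genes and for 0 of 17 mitosis genes, against 6.12% of all genes. For genes called towards Stra8-cre IP, towards Amh-cre IP and all genes, the SOX motif had shares of 5.97%, 8.19% and 8.96%. In the same order the GATA motif had 7.65%, 8.01% and 9.94%. The CRE had 2.52%, 2.3% and 2.33%, and the SF1 motif 0.995%, 1.61% and 1.27%. Single promoter entries of the same length held the E-box in 6.02% and the E2F motif in 3.82% of 32851. Both the E-box and the E2F motif contain the letters CG. The median count of CG in the window, from the highest entry of each gene, was 12 over all genes. It was 18 for genes called towards Stra8-cre IP and 15 for those called towards Amh-cre IP. The part of CG content in these shares was not tested. Fshr holds an E-box at 61 bases. These matches are a description of the letters in the window, and no binding was measured.

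The largest differences towards germ cells were in genes of the male germ line. Slc25a31, the mitochondrial ADP/ATP carrier of germ cells, lay at 12.2, 12.4 and 12.58 in Stra8-cre IP (lowest, median and highest) and at 7.66, 8.28 and 8.8 in Amh-cre IP. The gap between the lowest germ cell array and the highest Sertoli cell array was over 3 log2 units, and the difference was 4.16 ± 0.133 (17.9-fold, adjusted p = 4.32e-14). Tuba3b, an alpha tubulin of the testis, differed by 4.19, and its near-identical copy Tuba3a by 3.4, so that their signals may be shared. Next came Mageb4 (4.08), the germ cell kinase Stk31 (4.08), Nlrp4c (3.99), the RNA exporter Nxf2 (3.99), the germ granule protein Asz1 (3.99), the synaptonemal complex protein Sycp3 (3.97), the ubiquitin protease Usp26 (3.94), the transketolase-like gene Tktl1 (3.91), Magea5 (3.79) and the meiosis gene M1ap (3.74). Of these 12 genes, 5 (Mageb4, Nxf2, Usp26, Tktl1 and Magea5) are on the X chromosome. Among all calls, 80 of the 1607 genes towards Stra8-cre IP and 154 of the 2047 towards Amh-cre IP were X-linked.

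Genes of germ cell identity and of the piRNA pathway, which silences transposons in the germ line, were almost uniformly higher in Stra8-cre IP. Of 20 pan-germ cell genes measured, 18 were called in that direction and 0 in the other (median 3.14, against 0.04 over all genes), with Nanos2 (0.53) and Dppa3 (0.58) not called. Of 20 piRNA and germ granule genes, 19 were called (median 3.11). Among them were Stk31, the transposon helicase Mov10l1 (3.4), the methyltransferase Henmt1 (3.4) that modifies piRNA ends, the germ granule protein Mael (3.32), the scaffold Tdrd1 (3.31) and the Piwi protein Piwil2 (3.27). Tdrd6, a late germ granule scaffold, was the only member measured that was not called (0.5).

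Genes of spermatogonial stem and progenitor cells were higher in Stra8-cre IP for 20 of 27 members, and 0 were called in the other direction (median 1.96). Gfra1, the co-receptor for the Sertoli cell factor GDNF, lay at 11.52, 11.85 and 12.35 in Stra8-cre IP and at 8.29, 8.53 and 8.85 in Amh-cre IP (3.37 ± 0.061, adjusted p = 2.43e-16). Ret, its signalling partner, differed by 3.37 ± 0.082, the forkhead factor Foxc2 by 3.2 ± 0.122, Zbtb16, which keeps spermatogonia undifferentiated, by 2.65 ± 0.105, and the adhesion protein Cdh1 by 2.64 ± 0.081. None of these genes overlapped between the groups. Nanos2 (0.53), Id4 (0.69) and Etv5 (0.89), also genes of stem spermatogonia, did not reach 2-fold over the 4 times. Id4 and Etv5 were named after their values were seen.

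Genes of differentiating spermatogonia were called towards Stra8-cre IP for 10 of 16 members (median 1.75) and genes of meiotic prophase for 22 of 32 (median 2.22). Crabp1, a cytoplasmic RA-binding protein, differed by 3.58 ± 0.088, the transcription factors Sohlh2 and Sohlh1 by 3.34 and 2.69, and Kit, the receptor whose gain marks differentiation, by 2.9 ± 0.128. The meiotic genes called included structural proteins of the chromosome axis (Sycp3, Stag3 at 3.15, Smc1b at 3.11) and Tex11 (3.63), while Spo11 (0.55), which makes the meiotic breaks, and Rec8 (0.46) were not called. Meig1, named for its expression in meiosis, was called the other way (-1.88 ± 0.083). Genes of pachytene cells and spermatids, stages that appear later, were called for 2 of 25 members, Piwil1 (2.08) and Ccna1 (1.13), with a median of 0.07. That share is near the 8.06% of all genes called towards Stra8-cre IP.

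DNA methylation and chromatin genes split between the cell types. Higher in Stra8-cre IP were 9 of 18, led by Morc1 (3.57 ± 0.119), which silences transposons, Hells (2.81), Uhrf1 (2.69 ± 0.158), Dnmt3b (2.03) and Dnmt1 (1.77), the last 3 of which place or maintain methylation. All 3 Tet genes, whose enzymes oxidise methylated cytosine, were higher in Amh-cre IP: Tet2 by 3.31-fold (-1.73 ± 0.099), Tet3 by 2.75-fold (-1.46 ± 0.068) and Tet1 by 2.39-fold (-1.26 ± 0.07). Their arrays did not overlap. Dnmt3a, a de novo methyltransferase, was at -0.04.

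The largest differences towards Sertoli cells were led by the cystatin genes Cst9 and Cst12. Cst9 lay at 12.75, 13.21 and 13.37 in Amh-cre IP and at 8.56, 9.26 and 9.81 in Stra8-cre IP (-3.93 ± 0.135, 15.3-fold, adjusted p = 9.13e-14). The related Cst12 (-3.72) and Cstdc1 (-3.41) and the whey acidic protein family gene Wfdc6a (-3.52) are, like Cst9, on chromosome 2. Others were the small GTPase gene Rab7b (-3.55), Amh (-3.49), the Toll-like receptor partner Ly96 (-3.47), the lipid droplet gene Cidea (-3.45), Mgst1 (-3.38) of glutathione metabolism, the glutaminyl cyclase Qpct (-3.36), Chp2 (-3.33) and the fatty acid transporter Slc27a6 (-3.28). All 12 were separated between the 16 arrays, which the naming rule required.

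Of 35 Sertoli secreted and marker genes 27 were called towards Amh-cre IP and 0 towards Stra8-cre IP (median -2). Of 20 Sertoli transcription factors 11 were called (median -1.59): Nr0b1 at -3.07 ± 0.233, Gata1 at -2.98 ± 0.114, Rhox8 at -2.72, Gata6 at -2.57, Gata4 at -2.4 ± 0.12, Sox9, Nr5a1 at -2.33, Sox8 at -2.32, Wt1 at -2.1 ± 0.106, Cited1 at -1.6 and Cited2 at -1.59. Dmrt1, which is also expressed by germ cells, was at 0.56. Fshr, the receptor for follicle stimulating hormone, lay between 11.4 and 11.56 in Amh-cre IP and between 8.34 and 9.52 in Stra8-cre IP (-2.71 ± 0.131, adjusted p = 4.78e-12). The inhibin subunit genes Inhbb and Inha differed by -2.62 and -2.04.

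Junction genes were called towards Amh-cre IP for 13 of 24 members, with 0 in the other direction (median -1.13). The adhesion genes Nectin2 (-2.86 ± 0.116), Jam2 (-2.53) and Cdh2 (-1.98), the gap junction gene Gja1 (-2.77 ± 0.15), Cldn11 (-2.43 ± 0.145) of the blood-testis barrier and Espn (-1.86) of actin bundles led the list. Cldn3 (0.32), Cldn5 (0.16) and the scaffold Tjp1 (0.15) were not called. Among hormone and growth factor receptors, 6 of 23 were higher in Amh-cre IP, against 10.3% of all genes. Tnfrsf1a (-2.84), Fshr and the thyroid hormone receptor Thra (-2 ± 0.098) were at the head, and Fgfr1 was higher in Stra8-cre IP (1.03).

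Signals and their receptors lay on opposite sides for some pairs and on the same side for others. Kitl, the ligand of Kit, lay between 11.94 and 12.3 in Amh-cre IP and between 9.52 and 10.67 in Stra8-cre IP (-2.23 ± 0.123), opposite to Kit (2.9). GDNF's receptors Gfra1 and Ret were higher in germ cells by 3.37, while Gdnf itself was higher in every Amh-cre IP array but fell just short of 2-fold (-0.99 ± 0.075). Gdnf was called after median centring (-1.09) and after quantile normalization (-1.02). The Notch ligands Jag2 (1.94 ± 0.086) and Jag1 (1.65 ± 0.071) were higher in germ cells and the receptor Notch1 in Sertoli cells (-2.02 ± 0.075). Notch1 lay between 11.95 and 12.43 in Amh-cre IP and between 9.96 and 10.51 in Stra8-cre IP, without overlap. Both Amh (-3.49) and its receptor Amhr2 (-2.76 ± 0.13), and both Wnt6 (-2.3) and the Wnt receptor Fzd7 (-1.33), were higher in Sertoli cells. Dhh, the hedgehog ligand of Sertoli cells, differed by -2.48 and its receptor Ptch1 by -0.51, which was not called. Cxcl12 (0.07) and Cxcr4 (-0.4) were not called either.

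Over the 2 lists, 5 of 28 niche ligands were higher in Amh-cre IP (Inhbb, Dhh, Wnt6, Kitl and Wnt5a) and 4 in Stra8-cre IP (Jag2, Jag1, Pdgfb at 1.52 and Bmp4 at 1.18). The shares over all genes were 10.3% and 8.06%, and the median of the niche ligand list was 0.09. Of 28 receptors listed for germ cells, 7 were higher in Stra8-cre IP, including the adhesion genes Mcam (3.19), Cdh1 and Epcam (2.11). Another 6 were higher in Amh-cre IP, led by Erbb4 (-2.38 ± 0.129), a neuregulin receptor, and Notch1.

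**Figure D3:**
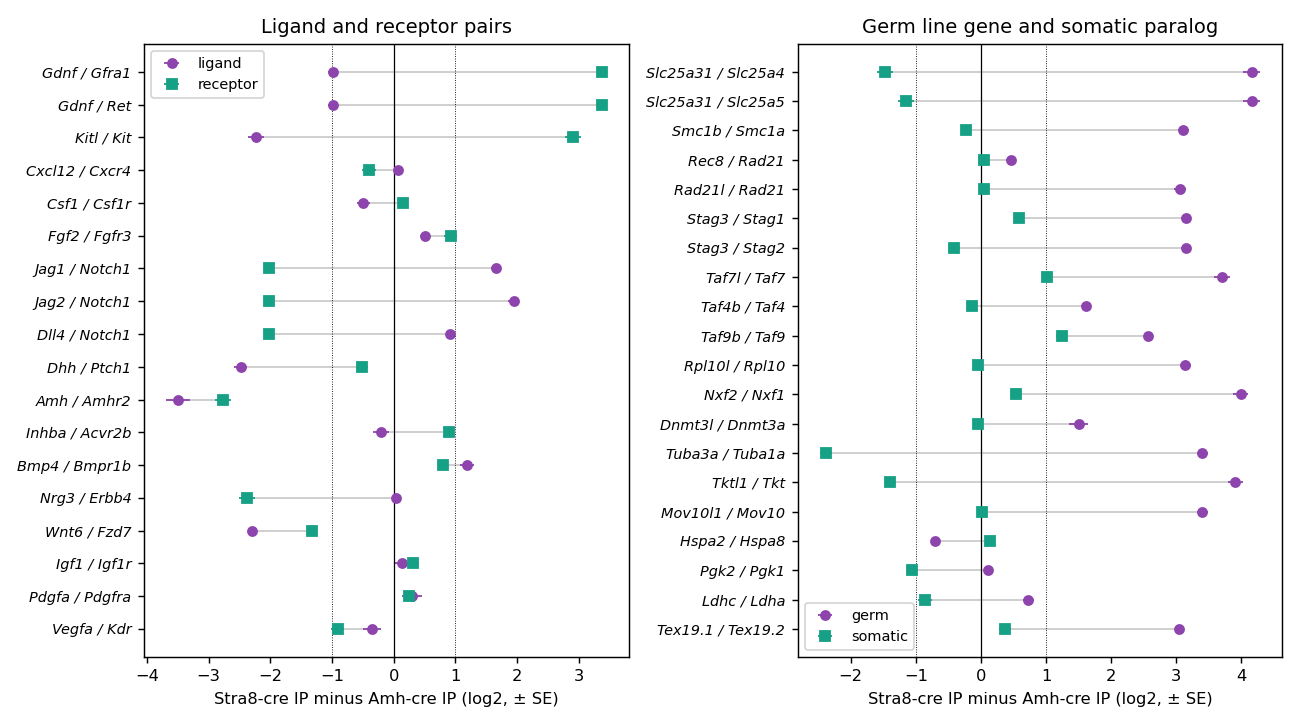
Difference between Stra8-cre IP and Amh-cre IP (x axis, log2, with the SE of the fit as bars) for both genes of ligand and receptor pairs (left) and of germ line genes with a somatic paralog (right), with dotted lines at 2-fold. Kit and Kitl lie on opposite sides (2.9 and -2.23), as do Slc25a31 and Slc25a4 (4.16 and -1.47), while Amh and Amhr2 lie on the same side.

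The retinoid pathway was divided. RA is made from retinol by retinol and retinaldehyde dehydrogenases, is degraded by the Cyp26 enzymes and acts through the receptors Rara, Rarb and Rarg. Sertoli cell IP was higher for the aldehyde dehydrogenase genes Aldh1a7 (-3.13 ± 0.108) and Aldh1a1 (-2.37 ± 0.151). These are similar genes that may share signal, and the action of their products on retinaldehyde was not measured. Also higher in that IP were the retinol importer Stra6 (-2.37 ± 0.198), Fabp5 (-2.31), which carries RA among other lipids, and Rdh10 (-1.06 ± 0.257), whose arrays overlapped. Aldh1a1 lay between 13.11 and 13.33 in Amh-cre IP and between 10.38 and 11.89 in Stra8-cre IP. Germ cell IP was higher for Crabp1 (3.58) and the retinol carrier Rbp4 (2.2 ± 0.077). The receptors went in opposite directions: Rara was higher in Amh-cre IP by 2.63-fold (-1.39 ± 0.064; 11.2 to 11.69 against 9.97 to 10.38), and Rarg was higher in Stra8-cre IP by 2.64-fold (1.4 ± 0.073; 9.43 to 10.17 against 8.2 to 8.43). Neither overlapped. Rarb was at 0.27. These receptor genes were named with their values known. In all 3 genes of 24 were called towards germ cells and 6 towards Sertoli cells, with a list median of 0.02. Over all genes these shares were 8.06% and 10.3%.

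Some germ line genes and their somatic paralogs were called in opposite directions. Slc25a31 was higher in germ cells (4.16), and the general ADP/ATP carriers Slc25a4 (-1.47 ± 0.123) and Slc25a5 (-1.15 ± 0.118) in Sertoli cells. Tktl1 (3.91) and Tkt (-1.39 ± 0.088), and Tuba3a (3.4) and Tuba1a (-2.38 ± 0.097), were opposed in the same way. In other pairs the germ line member differed and the general one did not reach 2-fold: Nxf2 (3.99) and Nxf1 (0.54), Mov10l1 (3.4) and Mov10 (0.02), Rpl10l (3.14) and Rpl10 (-0.05), Taf4b (1.61) and Taf4 (-0.14), Smc1b (3.11) and Smc1a (-0.23), and Rad21l (3.06) and Rad21 (0.04). In 2 pairs of transcription initiation factors both members were higher in germ cells: Taf7l (3.7) with Taf7 (1.02) and Taf9b (2.57) with Taf9 (1.24). The cohesin Rec8 (0.46) and the spermatid isozymes Pgk2 (0.11) and Ldhc (0.73) were not called. The germ line ribosomal protein genes Rpl10l and Rpl39l (2.88) led the 4 called of 20 ribosomal protein genes, whose median was 0.37. The other two, Rps4l (1.13) and Rps3 (1.01), were close to 2-fold.

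Metabolic and structural genes were called in part. Of 24 genes of lactate supply and metabolism, 7 were higher in Amh-cre IP: the creatine synthesis gene Gamt (-2.74 ± 0.092), the lactate dehydrogenase Ldhb (-2.58 ± 0.148), the phosphofructokinase Pfkl (-2.47), the lactate exporter Slc16a3 (-2.27 ± 0.115), Gatm (-1.24), Pgk1 (-1.06) and Hk2 (-1.06). The isozyme genes Aldoc (2.95 ± 0.088) and Pfkp (1.69) were higher in Stra8-cre IP, and 15 were not called, among them Ldha (-0.86). Of 13 tubulin genes 4 were higher in germ cells and 2 in Sertoli cells, Tubb3 (-2.82 ± 0.082) and Tuba1a. Collagen and basement membrane genes had shares near those of all genes (8.06% and 10.3%): of 21, 1 was higher in germ cells (Nid2, 2.12 ± 0.068) and 3 in Sertoli cells (Col18a1 at -2.19, Lamb2 at -1.81 and Lama1 at -1.38), with a median of -0.03. Of 14 genes of D cyclins and CDK inhibitors 6 were higher in germ cells and 3 in Sertoli cells (median 0.14). The cyclins Ccnd1 (2.69 ± 0.064) and Ccnd3 (1.53) were among the former, and the inhibitors Cdkn2d (-1.36), Cdkn2c (-1.13) and Cdkn1b (-1, not called after quantile normalization) were the latter. Of 14 immediate early genes 4 were higher in germ cells, led by Egr2 (2.61), and 2 in Sertoli cells, Jun (-2.31 ± 0.09) and Atf3 (-1.81), with a median of 0.04. After median centring 2 were higher in germ cells.

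Markers of other testis cells differed by less than 2-fold in most cases. By limma none of 14 macrophage, 12 endothelial or 3 erythroid genes measured was called (24 of 29 had an unadjusted p under 0.05), nor were 11 of 12 peritubular myoid genes (Myl9 at -1.04 being the exception). Over all genes 18.3% were called in either direction. The mean of the macrophage list lay between 7.64 and 7.87 in Stra8-cre IP and between 7.5 and 7.65 in Amh-cre IP. Of 10 Leydig cell genes 4 were higher in Amh-cre IP, against 10.3% of all genes: Hsd17b3 (-2.5), Nr5a1 (-2.33), Star (-1.91) and Scarb1 (-1.63). Nr5a1 is also on the Sertoli cell list. The steroidogenic enzyme genes Cyp17a1 (0.81) and Cyp11a1 (0.39) of the list were not called, and the list median was -0.62. The part of other cell types in the lists above was not tested.

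Chromosome X held a larger share of Sertoli-side calls than the autosomes. Of 739 X-linked genes tested, 154 (20.8%) were higher in Amh-cre IP, against 9.9% of 19105 autosomal genes. Towards Stra8-cre IP the shares were 10.8% and 7.96%. Of 16 X-linked genes listed for germ cells, 9 were higher in Stra8-cre IP, with Nxf2, Usp26 and Tktl1 at the head, and Nr0b1 and Dmrtc1a (-3.13) were higher in Amh-cre IP. Among genes with a mean of at least 8 log2 units, the median difference was -0.45 for 399 X-linked genes and 0 for 11229 autosomal genes. No test was made of this comparison.

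At each time taken alone the counts were of similar size. At time 0, before RA, 1417 genes (7.11%) were higher in Stra8-cre IP and 1880 (9.43%) in Amh-cre IP. The 12h arrays gave 1811 (9.08%) and 2178 (10.9%). Counts for 24h were 1702 (8.54%) and 2130 (10.7%), and those for 48h were 1705 (8.55%) and 2218 (11.1%). Of the 3654 genes called over all times, 2447 were called in the same direction at each of the 4 times.

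The difference between the lines itself changed over time for 989 genes (4.96%), by a moderated F test of the line-by-time terms with at least 2-fold between the largest and smallest difference. Of these, 508 (2.55%) were shifted towards Stra8-cre IP at 48h relative to time 0 and 481 (2.41%) towards Amh-cre IP. Mitosis genes made the most uniform group: 20 of 21 changed, all 20 towards Stra8-cre IP. Their median difference was 0.88 at time 0, 1.95 at 12h, 2.66 at 24h and 3.33 at 48h. Over the same times the list median fell from 10.38 through 9.8 and 9.31 to 8.54 in Amh-cre IP and went from 11.13 to 11.51 in Stra8-cre IP, so the gap widened mainly on the Sertoli cell side.

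Ccnb2, a cyclin of mitotic entry, showed the widest change. In Amh-cre IP its 2 arrays read 12.04 and 11.98 at time 0, 11.24 and 11.33 at 12h, 10.4 and 10.14 at 24h, then 8.27 and 8.47 at 48h. In Stra8-cre IP all 8 arrays lay between 12.06 and 12.34. The line difference therefore went from 0.24 to 0.82, 2.05 and 3.81 (adjusted p = 2.5e-09). Ccna2, a cyclin of S phase and mitosis (0.35 at time 0 and 3.53 at 48h, adjusted p = 7.95e-09), the kinase Plk1 (0.29 and 3.36), the spindle protein Prc1 (0.46 and 3.33), Depdc1a (-0.33 and 2.77) and the replicative histone H2ac4 (-0.06 and 3.37), whose copies are near-identical and may share signal, followed the same course. At time 0 none of these 6 genes was called between the lines. The Ccnb2 promoter printed above holds the NF-Y motif 3 times and the CHR motif once. NF-Y motifs were found for 14 of 17 mitosis genes (82.4%, against 38.8% of all genes) and CHR motifs for 8 of 17 (47.1%, against 15.7%).

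In the same Amh-cre IP arrays the mitosis list averaged 10.55 and 10.42 at time 0, 9.71 and 9.73 at 12h, 9.34 and 9.33 at 24h, then 8.58 and 8.72 at 48h. The pan-germ cell list there averaged 8.25 and 8.34, 8.13 and 8.06, 8.36 and 8.43, then 7.99 and 8.14. It was thus below its time 0 level at 12h and 48h and not at 24h, and its part in the mitosis result was not tested. In total RNA of the Amh-cre line the mitosis list averaged 10.53 and 10.45 at time 0 and 10.59 and 10.58 at 48h. Without the 2 Stra8-cre arrays of high Sertoli cell gene signal, 20 mitosis genes were again called, all in the same direction. DNA replication genes changed in the same direction for 14 of 22 members. Their median difference was 1.28 at time 0, 2.49 at 12h and 2.15 at 48h. The helicase subunit Mcm2 went from 1.56 to 3.07 between time 0 and 12h and was 2.87 at 48h.

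**Figure D4:**
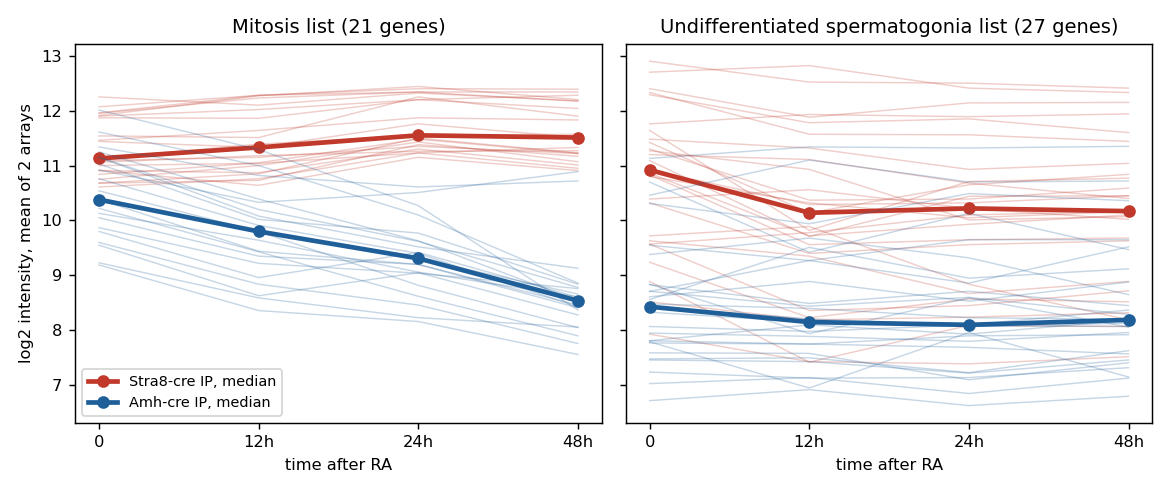
Log2 intensity (y axis, mean of 2 arrays) at each time after RA (x axis) of every gene of the mitosis list (left, 21 genes) and of the undifferentiated spermatogonia list (right, 27 genes), with thick lines for the list medians. The mitosis median falls from 10.38 to 8.54 in Amh-cre IP and goes from 11.13 to 11.51 in Stra8-cre IP, while the undifferentiated spermatogonia median goes from 10.92 to 10.17 in Stra8-cre IP.

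On the germ cell side, the difference for undifferentiated spermatogonia genes narrowed: 11 of 27 changed over time, all 11 with a smaller difference at 48h than at time 0, and the list median went from 2.44 to 1.84, 1.81 and 1.59. In Stra8-cre IP the list median was 10.92 at time 0 and 10.17 at 48h, while it was 8.43 and 8.19 in Amh-cre IP. Utf1, a chromatin factor of these cells, read 11.29 and 11.1 in Stra8-cre IP at time 0 and 10.41 and 10.39 at 48h, and 8.68 and 8.73 against 9.47 and 9.56 in Amh-cre IP, so both groups moved towards each other (adjusted p = 2.99e-05). Egr2, a GDNF-responsive factor, read 11.59 and 11.7 in Stra8-cre IP at time 0 and between 9.66 and 10.86 in the 6 later arrays, and stayed between 7.81 and 8.38 in Amh-cre IP (adjusted p = 3.48e-05). Foxc2 is counted among the 11, but its differences at time 0 and 48h were 3.51 and 3.43, with a low of 2.43 at 24h.

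Kit and Stra8, both switched on by RA in spermatogonia, widened instead. Kit read 10.34 and 9.86 in Stra8-cre IP at time 0 and between 11.91 and 12.37 in the 6 later arrays, and the difference went from 2.18 to 3.35 at 48h (adjusted p = 0.00146). Stra8, which licenses meiosis, read 8.42 and 8.07 at time 0, 11.02 and 11.22 at 12h, 10.36 and 10.85 at 24h, then 10.07 and 9.66 at 48h. Its difference from Amh-cre IP was 1.18 at time 0, 3.07 at 12h and 2.56 at 48h (adjusted p = 0.000198). Over the whole course the Stra8-cre IP arrays (lowest 8.07) overlapped those of Amh-cre IP (highest 8.28), since the lowest germ cell values were those of time 0.

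Among Sertoli secreted and marker genes 5 of 35 changed over time, all 5 with a difference further towards Amh-cre IP at 48h than at time 0. Defb36, a beta-defensin, went from -2.69 to -3.88 and Wfdc6a from -3.23 to -4.09. Tsx, an X-linked testis gene, went from -1.02 to -2.71 as its mean in Amh-cre IP went from 9.39 to 10.84. Trf, the iron carrier transferrin that Sertoli cells pass to germ cells, changed sign, from 1.18 to -1.01: its mean went from 10.66 to 9.32 in Stra8-cre IP and from 9.48 to 10.32 in Amh-cre IP. Tsx, Trf and Fabp3 (-1.84 and -1.9), a fatty acid carrier, were named after their values were seen. The level of this list in Stra8-cre IP was also higher at time 0 (9.84 and 10.36) than at 48h (9.64 and 9.51), and its part in these changes was not tested. Without the 2 arrays where it was highest, 7 genes of the list changed, 6 of them towards Amh-cre IP at 48h.

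Uchl1 and Dkk3 were highest at 12h among the 4 times in Amh-cre IP. Uchl1, a ubiquitin hydrolase known as a spermatogonial marker, read 9.28 and 9.32 in Amh-cre IP at time 0, 12.37 and 12.39 at 12h, 10.7 and 10.32 at 24h, then 10.64 and 10.74 at 48h. In Stra8-cre IP all 8 arrays lay between 12.61 and 12.92, so that the difference was 3.41, 0.26, 2.23 and 2.22 (adjusted p = 1.6e-08), and the level in Amh-cre IP at 48h was still above that of time 0. Dkk3, a secreted protein related to Wnt inhibitors, read 7.69 and 7.84 in Amh-cre IP at time 0, 10.36 and 10.15 at 12h, and between 7.63 and 7.86 in the 4 later arrays. Its difference was 1.63, -1.53, 1.18 and 0.75 (adjusted p = 9.75e-08), a change of sign at 1 time. Rdh10, named after its values were seen, had a mean of 11.91 in Amh-cre IP at 12h and of 9.16 at time 0, and its difference of -2.63 at 12h compares with values between -0.79 and -0.26 at the other times.

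**Figure D5:**
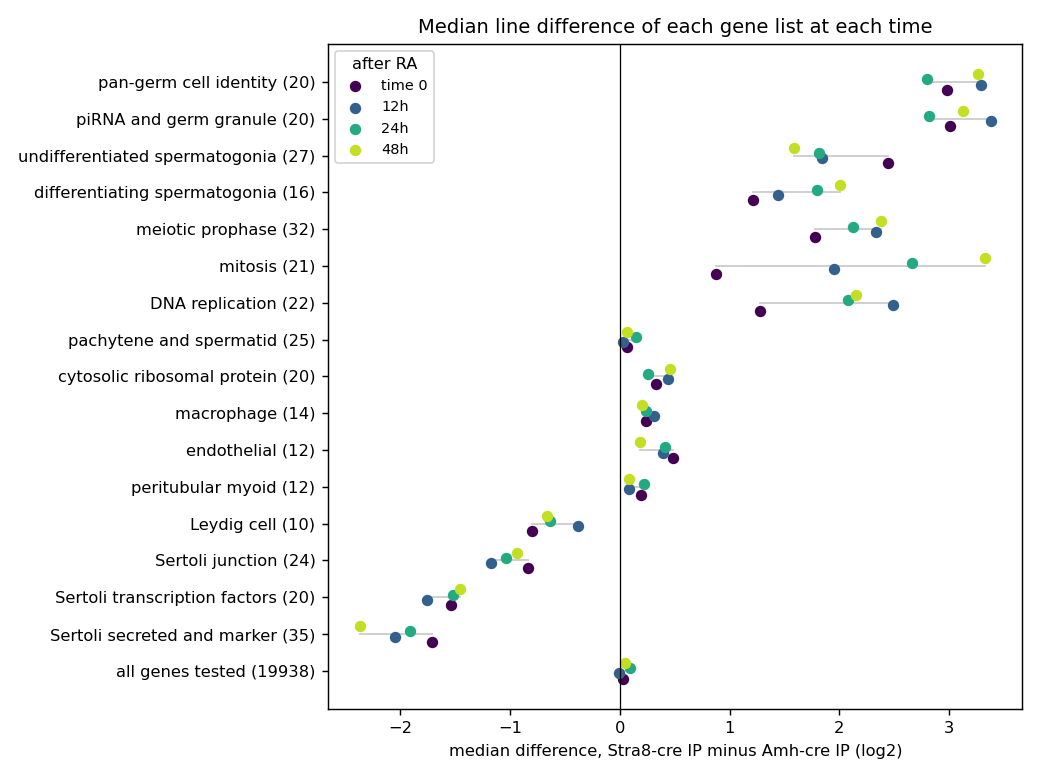
Median difference between Stra8-cre IP and Amh-cre IP (x axis, log2) of each gene list (y axis, with the number of genes measured) at time 0, 12h, 24h and 48h. The mitosis list moves from 0.88 to 3.33 and the undifferentiated spermatogonia list from 2.44 to 1.59, while the pan-germ cell list stays between 2.8 and 3.29.

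Total RNA of whole testes showed few differences of 2-fold or more between the 2 lines. Smaller ones were common: without the 2-fold minimum, 686 genes were higher in the Stra8-cre line and 1132 in the Amh-cre line. Over the same times 12 of 19938 genes (0.0602%) were called, 5 higher in the Stra8-cre line (0.0251%) and 7 in the Amh-cre line (0.0351%). Ddx4 differed by -0.11 and Amh by 0.24 in total RNA. For the genes called in IP RNA the median size of the total RNA difference was 0.121. Of the 12 genes called in total RNA, 7 were also called in IP RNA. Cadps, a protein of vesicle release (-1.15 ± 0.113 in total RNA, -3.23 in IP RNA), and the ephrin receptor Ephb1 (-1.22 ± 0.065 and -2.08) had the same direction in both. Vnn1, a pantetheinase of Sertoli cells (2.22 ± 0.093 in total RNA, -1.25 in IP RNA), the Wnt antagonist Frzb (1.9 ± 0.095 and -1.67) and Rarres1 (1.06 ± 0.086 and -2.72) had opposite directions. Fam181b was higher in total RNA of the Stra8-cre line (1.9 ± 0.088), with a difference of 0 in IP RNA, and Serpina3a (1.75), Cpa3 (-1.49), Dnah8 (-1.18) and Phyhip (-1.02) were called in total RNA and not in IP RNA. The difference between fractions was not tested.

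The germ and Sertoli cell difference over 0 to 48h was set against that at 6d and 8d, from the same lines. It departed from the later one for 1007 genes (5.05%): 344 (1.73%) were more towards Stra8-cre IP early and 663 (3.33%) more towards Amh-cre IP early. Bbox1, the last enzyme of carnitine synthesis, lay between 6.09 and 6.37 in early Stra8-cre IP and between 6.39 and 7 in early Amh-cre IP, and between 10.2 and 11 in Amh-cre IP at 6d and 8d. Its early difference was -0.28 and its late one -3.72 (change 3.44 ± 0.129, adjusted p = 7.56e-13). Utf1 was higher in germ cells early (1.76) and in Sertoli cells late (-1.35), a change of 3.11 ± 0.094 (adjusted p = 3.36e-14). The chloride channel gene Ano1 changed sign too (1.49 and -1.31). Car7 (0.1 and -2.63), Slc15a1 (0.3 and -2.37) and Dmrtc1b (-0.36 and -2.9) had small early differences as means over the 4 times, but larger ones at single times. Slc15a1 read 7.68 and 7.69 in Stra8-cre IP at time 0, against 6.66 and 6.55 in Amh-cre IP. At 48h Dmrtc1b read 7.38 and 8.01 against 8.68 and 8.83, and Car7 read 8.99 and 8.85 against 9.84 and 9.74. The late means also joined unlike arrays. In Amh-cre IP at 6d Slc15a1 read 7.0 and 9.2, Car7 11.2 and 12.65, and Dmrtc1b 9.22 and 10.46. Slc15a1 read 6.83 and 7.2 in Stra8-cre IP at 6d.

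In the other direction, Cd63, a tetraspanin of late endosomes, was higher in Sertoli cells early (-1.13) and in germ cells late (2.11). It lay between 10.13 and 11.18 in early Amh-cre IP, and at 9.82 and 8.74 at 6d and 7.45 and 7.55 at 8d. The change was -3.24 ± 0.224 (adjusted p = 8.91e-10). Greb1l (-1.26 early and 1.66 late), Tspan6 (-1.23 and 1.5), the CDK inhibitor Cdkn2c (-1.13 and 1.31), the translation regulator Cpeb2 (-1.06 and 1.38) and Efcab2 (-1.17 and 1.18) changed sign in the same way. For undifferentiated spermatogonia genes, 10 of 27 were more towards Stra8-cre IP early and 0 less, and the late median was 1.26, against 1.96 early. For meiotic genes 9 of 32 were less so early and 0 more. The pan-germ cell list had medians of 3.14 early and 2.68 late, with 1 member called.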

How the data were processed

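The deposited values are linear intensity after RMA, per the submitters' processing notes, from an Affymetrix array with a single dye and summaries per gene. Software, settings and which arrays were processed together: not given in the sources used here. Per the labels' protocols, RNA was purified on RNeasy columns, amplified as cDNA (NuGEN Ovation) and given a biotin label. Each deposited intensity was converted to log2 without further scaling. There were 28853 probe sets, of which 23410 were listed with a gene in the platform annotation, which is old. Of these, 21789 had a single symbol and 1621 several, and 5443 were unlisted. The latter 2 kinds were left out, and 99.6% of the rest matched current gene numbers. For 999 genes with several probe sets, only the brightest by mean signal was kept, which left 19938 genes. Their probe sets differed for some genes, among them Top2a of the mitosis list.

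Fits were made with limma 3.58.1 in R 4.3.3 (data.table version 1.17.8), using moderated variances that follow a trend with intensity. The main model held line and time over 16 arrays, 8 group means gave the line-by-time F test and the difference at each time, 12 group means over 24 arrays the early against late test, and line and time over 22 arrays the total RNA background. Tests were two-sided. The number of arrays limits precision. On simulated data the main fit called 100 of 100 genes changed 3-fold, 0 of 100 changed 1.5-fold and 0 of 19738 unchanged ones, over 19938 genes. The last 2 counts follow largely from the 2-fold minimum. The simulated noise was independent between arrays and had the spread of replicate arrays, so false calls in the real data were not measured. Arrays of the same number did not deviate together between lines (correlations of residuals from -0.125 to 0.083 in IP RNA, with a minimum of 0.1 asked of every pair), so they were not paired.

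The members, gene lists and pairs were chosen with earlier results of these data known, so a list's direction is not independent evidence. By rule, genes were named as the 12 largest called in each direction without overlap (no predicted or clone symbols), 8 for line by time, 6 in each direction for early against late, up to 10 for total RNA, the 6 largest of each list with called members that go against it, both genes of each pair, and Ddx4, Sall4, Sox9, Amh, Kit, Stra8, Gfra1, Dazl, Wt1, Gata4, Fshr and Rpl22 (Dazl differed by 3.24). Other genes in the text were named outside this rule, with their values known. Among them are Rara, Rarg, Rarb, Tdrd1, Piwil2, Nanos2, Dppa3, Tdrd6, Spo11, Sox8, Inha, Epcam, Tjp1 and Cyp11a1. Alternatives were no fold minimum, a filter on low signal (lowest 30% of genes), quantile normalization, centring on the array median, averaged probe sets, no intensity trend, all 77 arrays in 1 model of 35 group means, line-by-time group means, the replicate number as a block, and each array left out in turn. Leaving out the 2 Stra8-cre arrays with the highest Sertoli cell gene signal, and leaving out time 0, were chosen after seeing the data. Arrays labelled 4h were left out. Promoter sequences are RefSeq's, the first 250 bases of each entry, and a gene counts once if any of its entries holds a motif.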

Additional observations from a re-analysis of the deposited data

Results flagged for a closer look

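The difference between germ cell and Sertoli cell IP RNA changed with time for 989 genes by the moderated F test. From time 0 to 48h the log2 difference rose by 3.57 for Ccnb2, 3.43 for H2ac4, 3.18 for Ccna2, 3.1 for Depdc1a, 3.07 for Plk1 and 2.87 for Prc1. It changed by -0.88 for Dkk3 and -1.19 for Uchl1, whose widest change was at 12h.

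Between 0 to 48h and the later times 6d and 8d, the difference departed for 1007 genes. Early minus late, the values were 3.44 for Bbox1, 3.11 for Utf1, 2.8 for Ano1, 2.73 for Car7, 2.67 for Slc15a1 and 2.54 for Dmrtc1b. In the other direction they were -3.24 for Cd63, -2.92 for Greb1l, -2.74 for Tspan6, -2.44 for Cdkn2c, -2.44 for Cpeb2 and -2.35 for Efcab2.

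Single arrays stood apart in 3 of the 30 total RNA gene and group combinations of 4 arrays that were examined, where chance alone gives about 1 in 20. They were Frzb in the third Stra8-cre total array of time 0 (10.03), Cpa3 in the third of 48h (7.26) and Cadps in the fourth of 48h (8.54).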

How the results depend on the processing

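Without the 2-fold minimum, the counts were 7212 and 5918 genes between the IP groups (Stra8 higher and Amh higher), 5648 and 5260 at time 0, 5542 and 5848 at 12h, 7529 and 5592 at 24h, 6034 and 5375 at 48h, 7424 for line by time, 686 and 1132 for total RNA, and 5832 and 4774 for early against late. In total RNA 4 genes were higher in the Amh-cre line after median centring and 4 with the replicate block, in place of 7, and Phyhip fell below 2-fold in both (-0.98), as did Ephb1 with the mean of its probe sets (-0.82). Leaving out 1 array at a time gave 1569 to 1658 and 2023 to 2095 genes between the IP groups and 954 to 1151 for line by time. For early against late it gave 298 to 407 genes more towards Stra8-cre IP early and 638 to 708 more towards Amh-cre IP early. The 298 came without the second Amh-cre IP array of 6d and the 407 without the first. Without time 0 the counts between the IP groups were 1682 and 2135. The replicate block ended no call among the 35, 8 and 12 genes refitted for the IP comparisons (between groups, line by time, and early against late), and arrays were not paired. Median centring moved the median of all genes by -0.095, to -0.06. The direction and side of the threshold held under every alternative run for those genes, which are only some of the genes named, and no refitted result reversed. Genes near 2-fold, such as Rdh10, Rps3, Fgfr1, Pgk1, Hk2 and Myl9, lost their call under 1 scaling (quantile normalization or centring), with an unchanged sign. Arrays carry no counts, and a difference under 2-fold was not called at any signal.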
